A study of Mus musculus with 26 samples.

Results

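The 10 genes described here make, process, receive or carry the natriuretic peptide signal in the mouse left ventricle: Nppa, Nppb, Npr1, Npr2, Npr3, Corin, Furin, Prkg1, Pde5a and Pde9a. They were taken by gene symbol from a table of 40413 genes, and all 10 were found there and were among the 15543 genes with enough counts to be tested. Polyadenylated RNA was sequenced from left ventricles of adult mice of 2 inbred strains, BPH/2J, which is hypertensive, and BPN/3J, its normotensive counterpart. Mice had been given Cmpd17b, a small-molecule agonist of formyl peptide receptors, at 50 mg/kg per day by intraperitoneal injection for 28 days, or vehicle over the same time. The groups were BPH/2J on Cmpd17b (BPH_Cmpd17b, 6 libraries used of 7), BPH/2J on vehicle (BPH_vehicle, 7 libraries), BPN/3J on Cmpd17b (BPN_Cmpd17b, 5 libraries) and BPN/3J on vehicle (BPN_vehicle, 7 libraries). Each library came from its own animal. Every strain is a single inbred line, so a strain difference holds all the alleles at which the lines differ, and no allele was examined here.

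As background, atrial natriuretic peptide (from Nppa) and B-type natriuretic peptide (from Nppb) are hormones that heart muscle releases when it is stretched. The membrane protease corin cuts the Nppa precursor and the protease furin can cut the Nppb precursor. Both peptides act on the receptor encoded by Npr1, a guanylate cyclase that makes cGMP, which lowers blood pressure and restrains growth of heart muscle. Npr2 encodes the related receptor for C-type natriuretic peptide, and Npr3 the clearance receptor, which removes the peptides. Inside the cell, cGMP activates the protein kinase encoded by Prkg1 and is broken down by phosphodiesterases, among them those encoded by Pde5a and Pde9a. In the ventricle of adult mice Nppa and Nppb are widely used as markers of load, while Nppa is abundant in the atria in health.

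Nppb and Nppa lie side by side on chromosome 4, with no gene between them in the GRCm38 annotation. Their promoters are shown because Nppb was lower in BPH/2J under vehicle, while Nppa was higher in BPH/2J under Cmpd17b. The sequences are the RefSeq reference (build GRCm38.p6, C57BL/6J, plus strand), from 250 bases before to 50 bases after the annotated start, and not those of BPH/2J or BPN/3J. Capitals mark GATA motifs, the M-CAT motif and the NKE motif.
Nppb, chr4:147985650-147985949: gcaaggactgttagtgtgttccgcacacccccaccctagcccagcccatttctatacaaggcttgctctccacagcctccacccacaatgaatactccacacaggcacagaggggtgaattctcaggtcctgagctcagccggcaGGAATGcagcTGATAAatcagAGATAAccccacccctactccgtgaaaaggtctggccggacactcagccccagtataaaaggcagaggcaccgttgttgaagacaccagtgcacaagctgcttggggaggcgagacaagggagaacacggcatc
Nppa, chr4:148000472-148000771: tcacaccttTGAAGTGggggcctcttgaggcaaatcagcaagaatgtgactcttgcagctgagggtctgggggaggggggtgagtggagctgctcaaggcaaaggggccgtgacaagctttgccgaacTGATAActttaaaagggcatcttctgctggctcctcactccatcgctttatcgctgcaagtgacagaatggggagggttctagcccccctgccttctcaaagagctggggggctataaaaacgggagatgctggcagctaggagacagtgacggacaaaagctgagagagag

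The motifs searched on both strands were GATA (an A or T followed by GATAA or GATAG), bound by GATA factors, M-CAT (CATTCC), bound by TEAD factors, NKE (TNAAGTG), bound by Nkx2-5, and the CArG box, bound by serum response factor. The TATA box (TATAAA) was searched on the gene's strand only. In the Nppb promoter, an M-CAT motif on the minus strand began at position -105 relative to the start and was followed by GATA motifs at -95 and -84 and a TATA box at -31. In the Nppa promoter, the NKE motif began at -241, the GATA motif at -122 and the TATA box at -9. None of these matches overlapped another. Of 32841 RefSeq promoters of the same length, 29.8% held a GATA motif, 14.7% M-CAT, 11.5% NKE, 1.63% a CArG box and 8.32% the TATA box. RefSeq gave 11 promoters for 9 of the 10 genes (all but Pde9a), of which 3 held GATA, 1 M-CAT, 2 NKE, 0 a CArG box and 3 a TATA box. These matches describe letters in the reference and were not tested against expression.

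Total counts ran between 25476128 and 48648200 per library. One library labelled BPH_Cmpd17b (replicate 7) was left out for its levels of 2 marker genes. It held 12.4 CPM (counts relative to the library's scaled total) of the heart muscle gene Myh6, against 13442.5 to 23505.4 CPM in the others. Of the kidney gene Umod it held 1927 CPM, against at most 6.69 CPM in the others. In the 25 libraries used, summed ventricular muscle markers ran between 39835 and 62349 CPM. The sum of 9 kidney markers ran between 0.822 CPM (BPH_Cmpd17b replicate 2) and 159 CPM (BPN_Cmpd17b replicate 1) in these libraries. In 3 of the 25 libraries, markers of other cell types stood apart. BPN_vehicle replicate 7 held 1391 CPM of 8 endothelial markers, against 479 to 689 CPM in the other 24 libraries, and all 8 markers were above every other library. It also held 1074 CPM of 6 mural markers, against 566 to 862 CPM elsewhere, with 5 of these above every other library. BPH_Cmpd17b replicate 6 held 2014 CPM of 7 fibroblast markers, against 679 to 1070 CPM elsewhere. BPH_vehicle replicate 7 held 308 CPM of 6 atrial markers, against 27.9 to 73.8 CPM elsewhere, with 68.8 CPM of Myl7 against at most 1.51 CPM. The labels give 2 batches: batch 1 held 5 libraries of each group, while batch 2 held 1 of BPH_Cmpd17b (replicate 6), 2 of BPH_vehicle, none of BPN_Cmpd17b and 2 of BPN_vehicle.

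Levels above and below are CPM scaled by TMM (trimmed mean of M-values). Differences are log2 differences ± their standard error from edgeR's quasi-likelihood fit with batch as a term. A gene was called higher or lower where its Benjamini-Hochberg adjusted p over all 15543 genes was under 0.05.

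The strain comparison under vehicle asks how the pathway differs in hypertensive ventricle without the drug. Of the 10 genes, Prkg1 was called higher in BPH/2J, and Nppb, Npr3 and Pde5a were called lower. Of all genes tested, 18.9% were called in this comparison, 9.16% higher and 9.73% lower. The median log2 difference was -0.16 over the 10 genes and -0.00076 over all genes. The groups did not overlap for 2 of the 10 genes, Nppb and Pde5a, against 6.36% of all genes.

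In the strain comparison under Cmpd17b, Nppa and Prkg1 were called higher in BPH/2J, and Npr3 and Pde5a were called lower. Of all genes tested, 14.1% were called, 7.48% higher and 6.65% lower. The groups did not overlap for Nppa, Npr3, Prkg1 and Pde5a, 4 of the 10 genes, against 12.6% of all genes. The median log2 difference was -0.12 over the 10 genes and 0.01 over all genes. This comparison shares no library with that under vehicle, but both come from 1 fit with 1 estimate of spread.

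Among the ligands, Nppb held 134, 172 and 226 CPM (lowest, median and highest) in BPH_vehicle ventricles, against 247, 314 and 622 CPM in BPN_vehicle ventricles. Every BPH_vehicle library lay below every BPN_vehicle library. Nppb averaged 176 ± 30.5 CPM in BPH_vehicle and 359 ± 136 CPM in BPN_vehicle (SD, n = 7 each), a log2 difference of -1.03 ± 0.18 (95% interval -1.40 to -0.66, edgeR adjusted p = 9.11e-05). Batch 1 alone gave -1.04 (edgeR adjusted p = 0.000482). The call also held in batch 2 alone, with 2 libraries a group, BPH_vehicle replicate 7 among them (edgeR adjusted p = 0.00763).

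Under Cmpd17b the strains overlapped for Nppb. It held 142, 180 and 390 CPM (lowest, median and highest) in BPH_Cmpd17b, against 199, 220, 242, 279 and 217 CPM in the 5 BPN_Cmpd17b libraries. The highest of these values, 390 CPM, was that of BPH_Cmpd17b replicate 6, while the other 5 libraries of the group lay between 142 and 195 CPM, below all of BPN_Cmpd17b. In the fit of 25 libraries, the log2 difference between BPH_Cmpd17b and BPN_Cmpd17b was -0.28 ± 0.20 (edgeR adjusted p = 0.451). It was not called in any of the 11 fits without 1 library, that without replicate 6 among them (lowest edgeR adjusted p = 0.172). In 8 of 10 other settings it was not called either. It was called with only the libraries of these groups in the fit (-0.42, adjusted p = 0.00337) and with limma voom (-0.38, adjusted p = 0.0488).

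Nppa held 453, 594 and 2546 CPM (lowest, median and highest) in BPH_Cmpd17b, against 195, 200, 203, 182 and 77.1 CPM in the 5 BPN_Cmpd17b libraries. All 6 BPH_Cmpd17b libraries lay above all 5 of BPN_Cmpd17b. The means were 906 ± 809 CPM (SD, n = 6) in BPH_Cmpd17b and 171 ± 53.3 CPM (SD, n = 5) in BPN_Cmpd17b. The log2 difference was 2.12 ± 0.47 (95% interval 1.15 to 3.09, edgeR adjusted p = 0.00263). Without the 3 libraries that stood apart it was 1.75 (adjusted p = 0.00264). Batch 1 by itself gave 1.75 (edgeR adjusted p = 0.00398). Both fits hold the same libraries of these groups, so they are not separate checks. BPH_Cmpd17b replicate 6, the library with 2546 CPM of Nppa, was the library with the highest fibroblast markers.

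Markers of atrial muscle were set beside Nppa in these groups. Their summed level ran between 53.1 and 73.8 CPM in BPH_Cmpd17b and between 51.7 and 70.3 CPM in BPN_Cmpd17b, most of it from Kcnj3 (37.1 to 67.2 CPM in BPH_Cmpd17b and 48.6 to 67.6 CPM in BPN_Cmpd17b). Myl4, an atrial myosin light chain gene, held 3.20 to 7.20 CPM in BPH_Cmpd17b and 0.901 to 1.54 CPM in BPN_Cmpd17b, and Dkk3 held 2.36 to 12.3 CPM in BPH_Cmpd17b and 1.33 to 2.20 CPM in BPN_Cmpd17b, both with no overlap. Of the 3 atrial markers tested, Dkk3 was called higher in BPH_Cmpd17b (1.14 ± 0.38, edgeR adjusted p = 0.0483), a call lost in 9 of 11 fits without 1 library, while Myl4 had a difference of 1.65 ± 0.85 (adjusted p = 0.236) and Kcnj3 of -0.04 ± 0.17 (adjusted p = 0.916). Myl7 reached at most 1.18 CPM in BPH_Cmpd17b and 0.216 CPM in BPN_Cmpd17b, Sln at most 0.728 and 0.0347 CPM in the same groups, and Bmp10 was at 0 in every BPH_Cmpd17b library. In BPH_Cmpd17b replicate 6, Dkk3 was at 12.3 CPM, Myl4 at 3.67 CPM, Kcnj3 at 37.1 CPM, Myl7 at 0.0873 CPM and Sln at 0. The part of these genes in the Nppa difference was not tested.

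Under vehicle the strains overlapped for Nppa. It held 325, 499 and 886 CPM (lowest, median and highest) in BPH_vehicle, against 169, 333 and 876 CPM in BPN_vehicle. That gave a log2 difference of 0.29 ± 0.38 (95% interval -0.50 to 1.08, edgeR adjusted p = 0.665). BPN_vehicle replicates 3 and 7 held 876 and 680 CPM and the other 5 libraries of that group between 169 and 345 CPM. Leaving out 1 library at a time moved the difference between 0.10 (without BPH_vehicle replicate 2) and 0.62 (without BPN_vehicle replicate 3), with no call. With limma voom, which gave BPN_vehicle replicate 7 a weight of 0.0799, it was 0.79 (adjusted p = 0.0215). In batch 2 alone, with 2 libraries a group, BPH_vehicle replicate 7 among them, it was 1.04 (edgeR adjusted p = 0.0225). The 5 libraries a group of batch 1 gave 0.10 (edgeR adjusted p = 0.900). The BPH_vehicle library with the most Nppa, replicate 7 with 886 CPM, was that with the high atrial markers. Of the 3 atrial markers tested, Myl4 and Dkk3 were called higher in BPH_vehicle, by 2.39 and 1.09 on the log2 scale. Without BPH_vehicle replicate 7 they differed by 1.01 and 0.77, and the call of Dkk3 was lost (adjusted p = 0.0586). Each of these genes lost its call in 3 of 14 fits without 1 library, and in batch 2 alone. Summed atrial markers ran between 61.6 and 308 CPM in BPH_vehicle and between 27.9 and 65.4 CPM in BPN_vehicle, and their part in Nppa was not tested. In whole tissue, fewer cells of a type and less RNA per cell cannot be told apart, for Nppa or for any gene below.

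**Figure D1:**
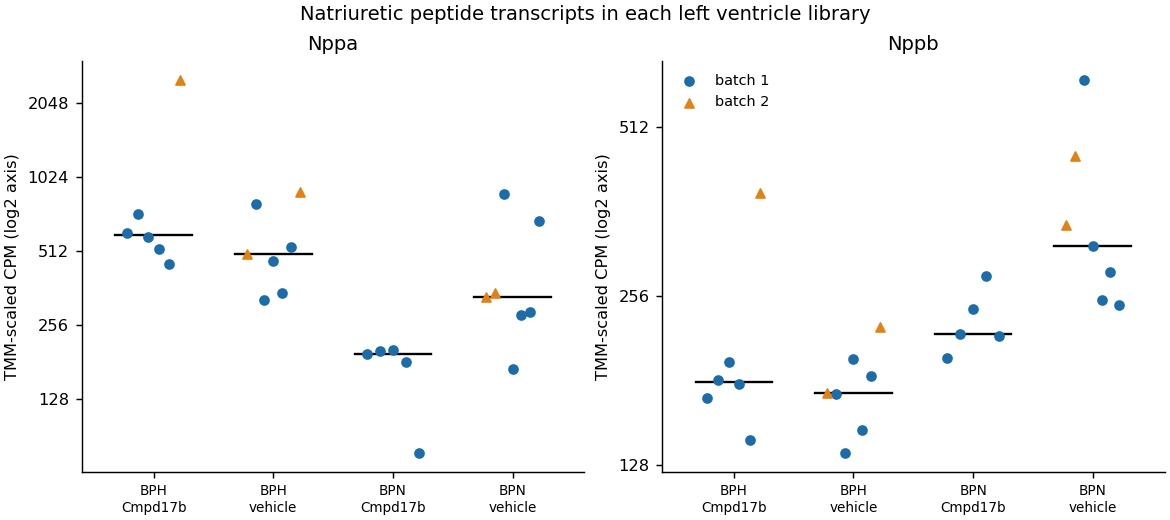
TMM-scaled CPM (log2 axis) of Nppa and Nppb in each library, by group, with the group median as a line and batches by colour and shape. All BPH_vehicle libraries lie below all BPN_vehicle libraries for Nppb, and all BPH_Cmpd17b libraries lie above all BPN_Cmpd17b libraries for Nppa.

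By mean level, the groups ran in the order BPH_Cmpd17b, BPH_vehicle, BPN_vehicle and BPN_Cmpd17b for Nppa, from high to low. For Nppb the order was BPN_vehicle, BPN_Cmpd17b, BPH_Cmpd17b and BPH_vehicle. No difference between neighbours in either order was called in the edgeR fit of 25 libraries.

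The ratio of Nppa to Nppb counts within a library does not depend on how libraries are scaled, and its mean was higher in BPH/2J in both treatments. The ratio was between 2.93 and 6.52 in BPH_Cmpd17b and 0.981, 0.912, 0.836, 0.652 and 0.355 in the 5 BPN_Cmpd17b libraries, with no overlap. Between these groups the mean log2 ratio differed by 2.40 (exact two-sided permutation test over libraries, p = 0.00216, the smallest this design allows, adjusted p = 0.00932 over 8 ratio tests). It was between 2.35 and 4.62 in BPH_vehicle and between 0.538 and 2.76 in BPN_vehicle, where only replicate 7 was above 1.41. Under vehicle the mean log2 ratio differed by 1.45 (exact permutation test, p = 0.00233, adjusted p = 0.00932). Within batch 1 the differences were 2.23 under Cmpd17b (exact permutation test, p = 0.00794, the smallest possible with 5 against 5, adjusted p = 0.0635) and 1.24 under vehicle (exact permutation test, p = 0.0317, adjusted p = 0.127). The sizes of the ratio do not compare the levels of these transcripts, which differ in length.

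The enzymes that cut the precursors were not called in any comparison. Corin averaged 117 ± 10.1 CPM (SD, n = 6) in BPH_Cmpd17b, 117 ± 10.7 CPM in BPH_vehicle (n = 7), 134 ± 10.4 CPM in BPN_Cmpd17b (n = 5) and 118 ± 24.1 CPM in BPN_vehicle (n = 7). Its log2 strain difference was -0.01 ± 0.11 under vehicle (95% interval -0.24 to 0.21) and -0.20 ± 0.12 under Cmpd17b (-0.45 to 0.05). BPN_vehicle replicate 7 held 68.3 CPM of Corin, against 117 to 144 CPM in the other 6 libraries of its group. Furin averaged 67.8 ± 3.26 CPM in BPH_Cmpd17b, 61.7 ± 6.30 CPM in BPH_vehicle, 68.4 ± 7.92 CPM in BPN_Cmpd17b and 60.0 ± 14.7 CPM in BPN_vehicle. Its strain differences were 0.04 (95% interval -0.18 to 0.26) under vehicle and 0.02 (-0.23 to 0.27) under Cmpd17b. For both enzymes the intervals under vehicle exclude a change as large as that of Nppb.

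Of the receptors, Npr3 was the one called. It held 9.87, 12.9 and 13.7 CPM (lowest, median and highest) in BPH_Cmpd17b, against 17.6, 14.0, 18.9, 17.3 and 18.5 CPM in the BPN_Cmpd17b libraries, with no overlap. The log2 difference was -0.45 ± 0.12 (95% interval -0.70 to -0.20, edgeR adjusted p = 0.0095), and it was called without each library in turn. Under vehicle Npr3 held 10.2, 13.5 and 17.2 CPM in BPH_vehicle, against 15.3, 16.0 and 18.7 CPM in BPN_vehicle, and BPH_vehicle replicates 6 and 7 overlapped that strain. The log2 difference was -0.31 ± 0.11 (edgeR adjusted p = 0.0401), and the call was lost in 8 of 14 fits that left out 1 library, with adjusted p up to 0.104. In batch 2 alone it was -0.04, where BPH_vehicle replicate 7 is 1 of 2 libraries.

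Npr1, the guanylate cyclase receptor for both peptides, held 13.3, 15.8 and 17.4 CPM (lowest, median and highest) in BPH_Cmpd17b, 14.4, 15.8 and 19.5 CPM in BPH_vehicle, 15.1 to 19.7 CPM in BPN_Cmpd17b and 15.7, 18.0 and 46.7 CPM in BPN_vehicle. The value of 46.7 CPM came from BPN_vehicle replicate 7, the library with the high endothelial and mural markers. The other 6 libraries of the group lay between 15.7 and 18.6 CPM. The strain difference under vehicle was -0.40 ± 0.16 (edgeR adjusted p = 0.0892) with replicate 7 and -0.12 without it. The part of endothelial or mural RNA in Npr1 was not tested. Npr2 averaged 45.5 ± 3.12, 44.2 ± 2.95, 41.6 ± 4.87 and 44.9 ± 8.65 CPM in BPH_Cmpd17b, BPH_vehicle, BPN_Cmpd17b and BPN_vehicle. Its strain difference was -0.02 (95% interval -0.20 to 0.16) under vehicle and 0.16 (-0.05 to 0.36) under Cmpd17b. The clearance receptor over the cyclase receptor, as the log2 ratio of Npr3 to Npr1 counts, differed by -0.35 between BPH_Cmpd17b and BPN_Cmpd17b (exact permutation test, p = 0.0325, adjusted p = 0.0866) and by -0.02 between BPH_vehicle and BPN_vehicle (exact permutation test, p = 0.959). Neither passed the correction.

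**Figure D2:**
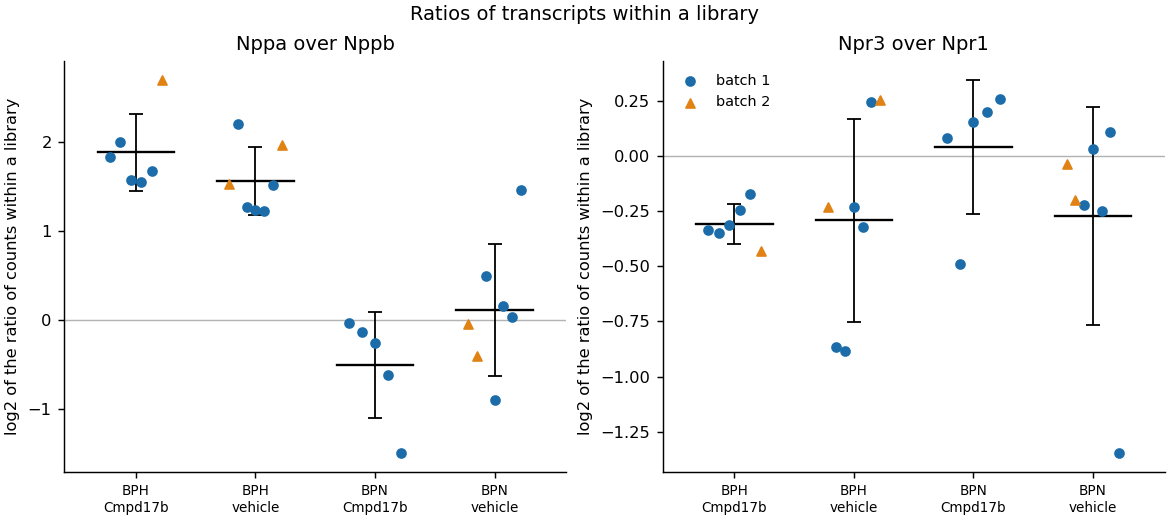
Log2 ratio of Nppa to Nppb counts (left) and of Npr3 to Npr1 counts (right) in each library, by group, with mean and SD. The Nppa to Nppb ratio separates the strains except for BPN_vehicle replicate 7, whose ratio of 2.76 lies within the range of BPH_vehicle.

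Downstream of cGMP, the kinase gene Prkg1 was called higher in BPH/2J in both treatments. It held 10.2, 11.4 and 14.0 CPM (lowest, median and highest) in BPH_vehicle, against 4.85, 8.45 and 10.5 CPM in BPN_vehicle. Only 1 BPH_vehicle library lay within the range of BPN_vehicle. Prkg1 averaged 12.2 ± 1.54 CPM in BPH_vehicle and 8.34 ± 1.88 CPM in BPN_vehicle (SD, n = 7 each), a log2 difference of 0.55 ± 0.10 (95% interval 0.34 to 0.77, edgeR adjusted p = 0.000237). Under Cmpd17b it held 9.66, 12.8 and 16.8 CPM in BPH_Cmpd17b, against 7.23, 7.07, 8.49, 8.28 and 8.34 CPM in BPN_Cmpd17b, with no overlap. The difference there was 0.65 ± 0.12 (95% interval 0.40 to 0.90, edgeR adjusted p = 0.000238). Both calls held without each library in turn. In batch 2 alone, with 2 libraries a group, the call under vehicle was lost.

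From annotated start to end, Prkg1 overlaps another expressed gene, Cstf2t, which encodes an RNA 3' end processing factor. Whether their exons overlap was not examined. Without a stated strand setting, reads of these overlapping genes may not be fully separated, so Prkg1 is uncertain to that extent. Cstf2t averaged 30.4 ± 1.89 CPM in BPH_vehicle and 24.3 ± 4.51 CPM in BPN_vehicle, a log2 difference of 0.32 ± 0.09 (edgeR adjusted p = 0.00899). Under Cmpd17b it averaged 27.9 ± 1.52 CPM in BPH_Cmpd17b and 25.9 ± 1.56 CPM in BPN_Cmpd17b, a difference of 0.09 ± 0.10 that was not called (adjusted p = 0.651). Nppa, Nppb and Npr1 overlap no annotated gene, and the other overlapping genes that the count table holds had at most 11 counts in any library.

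Pde5a, the cGMP phosphodiesterase that sildenafil blocks, was called lower in BPH/2J in both treatments. It held 3.20, 3.84 and 4.31 CPM (lowest, median and highest) in BPH_vehicle, against 4.43, 5.29 and 6.65 CPM in BPN_vehicle. All 7 BPH_vehicle libraries lay below all 7 of BPN_vehicle. The means were 3.75 ± 0.381 CPM in BPH_vehicle and 5.58 ± 0.963 CPM in BPN_vehicle, a log2 difference of -0.57 ± 0.11 (95% interval -0.80 to -0.34, edgeR adjusted p = 0.000381). Under Cmpd17b Pde5a held 2.76, 4.01 and 4.13 CPM in BPH_Cmpd17b, against 5.29, 5.24, 5.36, 4.997 and 5.92 CPM in BPN_Cmpd17b, also with no overlap. The difference was -0.53 ± 0.13 (95% interval -0.79 to -0.26, edgeR adjusted p = 0.00445). In batch 2 alone, with 2 libraries a group, the call under vehicle was lost (edgeR adjusted p = 0.0999). Counts of Pde5a ran between 101 and 246 per library.

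Pde9a, a phosphodiesterase known for breaking down cGMP made by natriuretic peptide receptors, had the lowest counts of the 10, between 58 and 238 per library. It averaged 2.50 ± 0.469 CPM in BPH_Cmpd17b, 2.68 ± 0.501 CPM in BPH_vehicle, 2.87 ± 0.521 CPM in BPN_Cmpd17b and 3.66 ± 1.71 CPM in BPN_vehicle. BPN_vehicle replicate 7 held 7.49 CPM, against 2.62 to 3.39 CPM in the rest of its group. The strain difference under vehicle was -0.44 ± 0.19 (edgeR adjusted p = 0.117) with that library and -0.16 without it, and under Cmpd17b -0.17 ± 0.23 (adjusted p = 0.706).

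Markers of mural cells, where Prkg1 and Pde5a are also known to be expressed, were set beside these results. Their summed level ran between 602 and 862 CPM in BPH_vehicle (median 790 CPM) and between 566 and 1074 CPM in BPN_vehicle (median 672 CPM). The 1074 CPM was that of BPN_vehicle replicate 7, and the next highest of that group was 785 CPM. Replicate 7 held 4.85 CPM of Prkg1 and 6.64 CPM of Pde5a. Of 6 mural markers only Kcnj8 was called, as lower. Under Cmpd17b the sum ran between 611 and 809 CPM in BPH_Cmpd17b (median 753 CPM) and between 685 and 809 CPM in BPN_Cmpd17b (median 730 CPM). There Myh11 was called higher (0.62, edgeR adjusted p = 0.0405) and Kcnj8 lower (-0.31, edgeR adjusted p = 0.0135). The part of mural RNA in Prkg1 or Pde5a was not tested. Without the 3 libraries that stood apart, the differences under vehicle were 0.47 for Prkg1 and -0.48 for Pde5a, both called.

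**Figure D3:**
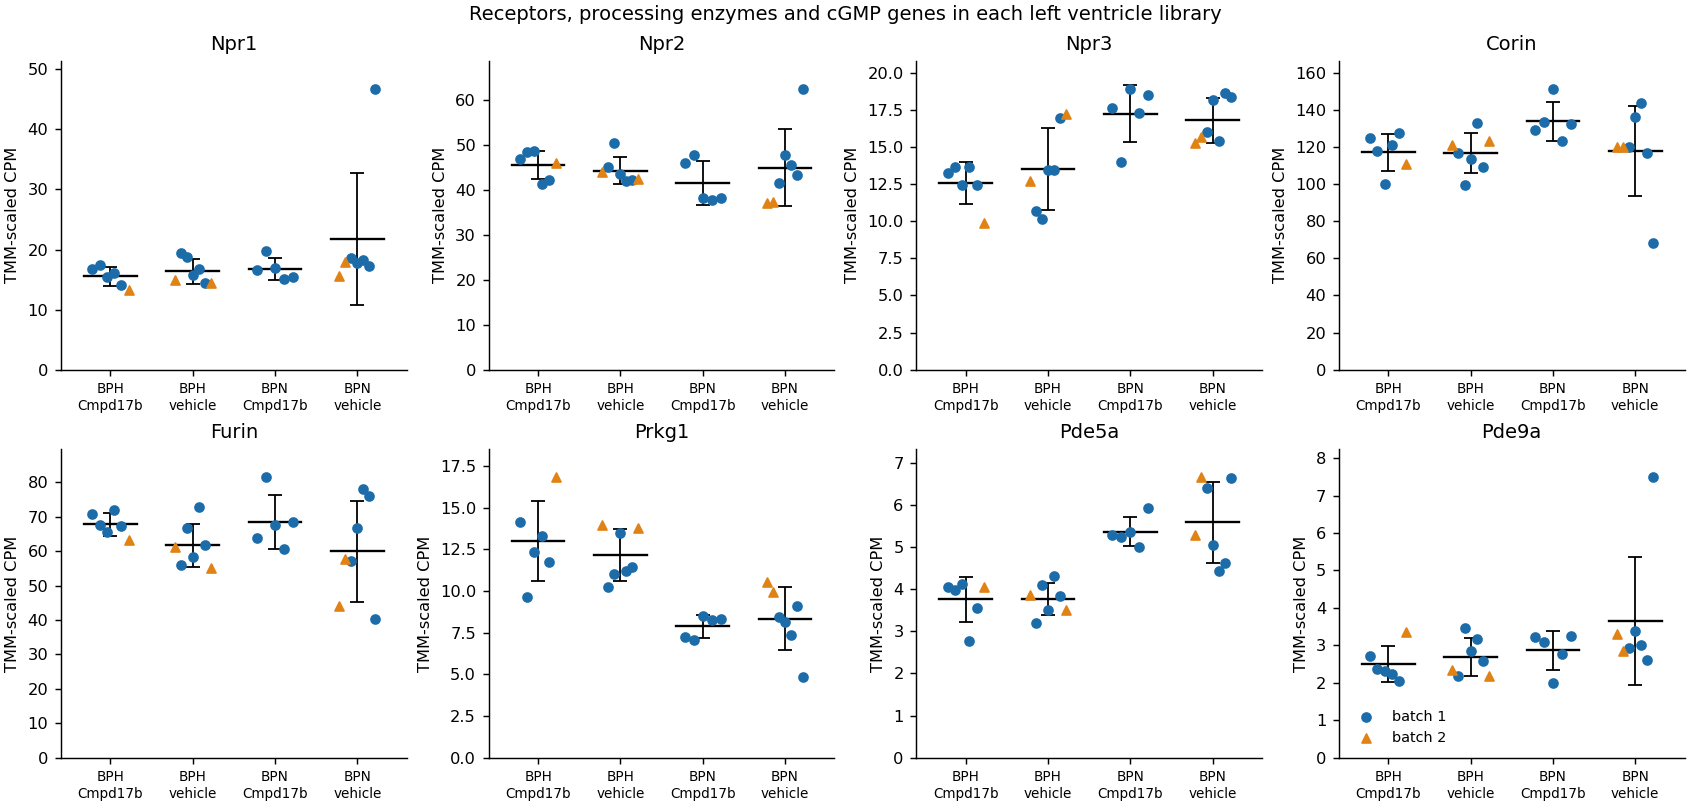
TMM-scaled CPM of the receptors, processing enzymes and cGMP genes in each library, by group, with mean and SD; axes start at 0. Prkg1 lies higher and Pde5a lower in both BPH/2J groups, and BPN_vehicle replicate 7 stands apart for Npr1 at 46.7 CPM, Corin at 68.3 CPM and Pde9a at 7.49 CPM.

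With the kidney-like library kept in the fit, only Pde5a of the 10 genes was called under vehicle, and 2, Npr3 and Pde5a, under Cmpd17b. Nppb then had the same difference under vehicle (-1.03, edgeR adjusted p = 0.337), and Prkg1 a difference of 0.54 under vehicle (adjusted p = 0.293) and 0.50 under Cmpd17b (adjusted p = 0.429). Nppa had a difference of 1.98 under Cmpd17b (adjusted p = 0.156).

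The comparison of Cmpd17b with vehicle within a strain asks what the drug changed. In BPH/2J, edgeR called 0 of the 10 genes and 0% of all genes, with 0 of the 10 and 1.85% of all genes at an unadjusted p under 0.05. DESeq2 and limma voom also called 0 genes. Nppa had a log2 difference of 0.65 ± 0.39 between BPH_Cmpd17b and BPH_vehicle (95% interval -0.17 to 1.47, edgeR adjusted p = 1.00), which was 0.10 without BPH_Cmpd17b replicate 6. Nppb had a difference of 0.25 ± 0.18 (95% interval -0.12 to 0.63), which was 0.05 without that library. The remaining 8 genes had differences between -0.12 and 0.14. None of the 10 separated the groups, against 0.0772% of all genes.

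In BPN/3J, edgeR also called 0 of the 10 genes and 0 of all genes, while DESeq2 called 1 gene outside the 10 and limma voom 0. At an unadjusted p under 0.05 there were 3 of the 10, Nppa, Nppb and Npr1, against 9.69% of all genes. Nppa held 195, 200, 203, 182 and 77.1 CPM in BPN_Cmpd17b, against 169, 333 and 876 CPM (lowest, median and highest) in BPN_vehicle. Between these groups the log2 difference was -1.18 ± 0.43 (95% interval -2.08 to -0.28, edgeR adjusted p = 0.514). Leaving out 1 library at a time moved this difference between -1.32 (without BPN_vehicle replicate 4) and -0.82 (without BPN_vehicle replicate 3). With limma voom it was -0.64. Of the 7 BPN_vehicle libraries, 6 lay above all of BPN_Cmpd17b. Nppb held 199 to 279 CPM in BPN_Cmpd17b, against 247 to 622 CPM in BPN_vehicle, a difference of -0.50 ± 0.20 (edgeR adjusted p = 0.514) that was -0.23 without BPN_vehicle replicate 3. Npr1 had a difference of -0.46 ± 0.18 (edgeR adjusted p = 0.514) that was -0.13 without BPN_vehicle replicate 7. BPN_Cmpd17b has libraries of batch 1 only, and in batch 1 alone the differences were -1.42 for Nppa and -0.57 for Nppb, with no call. The vehicle groups are shared with the strain comparison under vehicle, and the Cmpd17b groups with that under Cmpd17b, so these differences are not independent of those above.

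The test of whether the drug difference varies with strain called 0 of the 10 genes and 0 of all genes with edgeR, DESeq2 and limma voom. At an unadjusted p under 0.05 there were 2 of the 10, Nppa and Nppb, against 3.83% of all genes. The drug difference in BPH/2J minus that in BPN/3J was 1.83 ± 0.58 for Nppa (95% interval 0.61 to 3.05, edgeR adjusted p = 0.917) and 0.76 ± 0.27 for Nppb (0.20 to 1.31, edgeR adjusted p = 0.917). The call of Nppa under Cmpd17b only, and of Nppb under vehicle only, is therefore not shown to be a difference between treatments. For the remaining 8 genes this difference lay between -0.18 and 0.34.

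**Figure D4:**
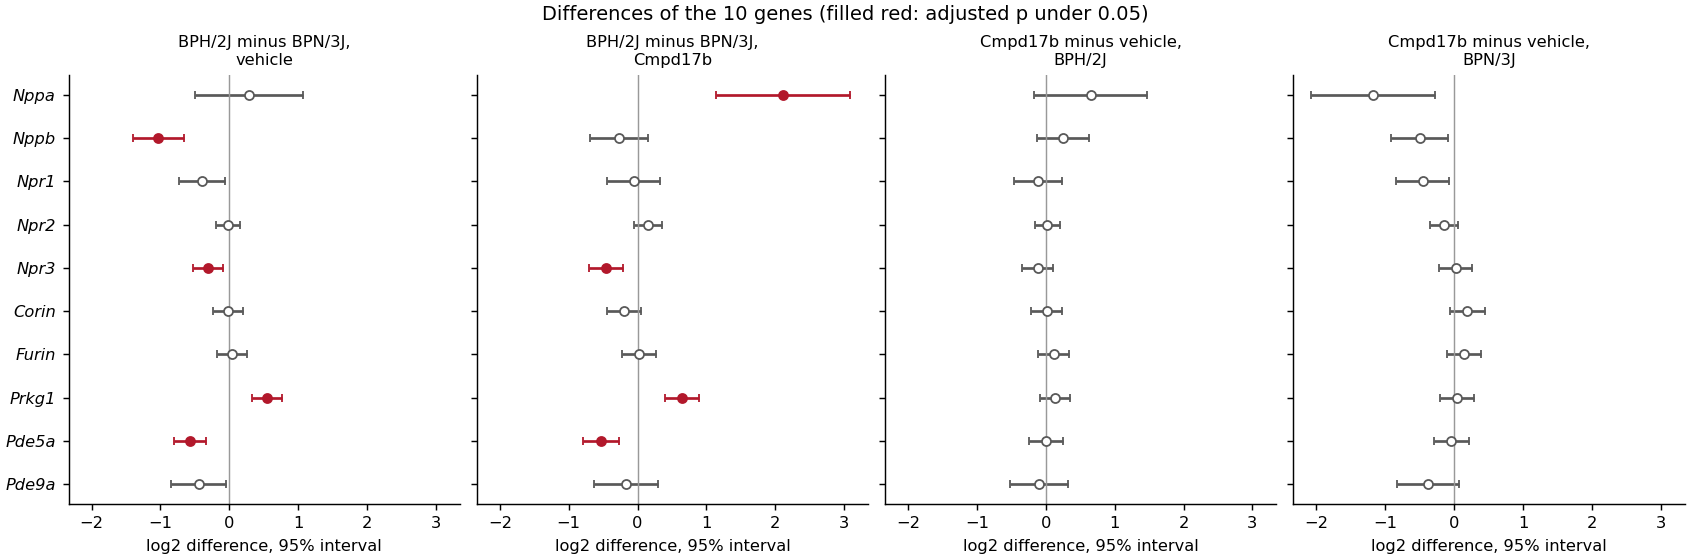
Log2 differences with 95% intervals of the 10 genes in 4 comparisons; filled red points passed an adjusted p of 0.05 (edgeR). Prkg1, Npr3 and Pde5a keep their sign and call in both strain comparisons, and no gene passed in the drug comparisons.

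The rest of the pathway was followed with 30 further genes of cGMP production, breakdown and action, of which 26 were tested. Under vehicle 2 were called higher and 2 lower, and under Cmpd17b likewise 2 and 2, while 0 were called in either drug comparison. Of all genes tested, 18.9% were called under vehicle and 14.1% under Cmpd17b, so the list's share is near that of all genes. Their median log2 difference was 0.01 under vehicle and 0.00 under Cmpd17b.

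Of 9 tested genes that supply or limit peptides and cGMP, Mme was called higher under vehicle. Mme encodes neprilysin, the protease that degrades natriuretic peptides, and averaged 13.4 ± 0.841 CPM in BPH_vehicle and 8.81 ± 1.33 CPM in BPN_vehicle (SD, n = 7 each). The log2 difference was 0.61 ± 0.10 (edgeR adjusted p = 5.4e-05), and all 7 BPH_vehicle libraries were above all of BPN_vehicle. Under Cmpd17b, Pcsk6, a protease that activates corin, was called lower (37.6 ± 3.90 CPM in BPH_Cmpd17b and 46.1 ± 4.23 CPM in BPN_Cmpd17b, -0.27 ± 0.08, adjusted p = 0.0263), a call lost in 6 of 11 fits without 1 library.

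Of 10 genes of cyclic nucleotide breakdown and export, Pde11a was called lower in both treatments. Pde11a, which encodes a phosphodiesterase of cAMP and cGMP, averaged 1.46 ± 0.390 CPM in BPH_vehicle and 3.34 ± 0.550 CPM in BPN_vehicle (-1.20 ± 0.18, edgeR adjusted p = 8.25e-06). Under Cmpd17b it averaged 1.43 ± 0.405 CPM in BPH_Cmpd17b and 3.27 ± 0.547 CPM in BPN_Cmpd17b (-1.16 ± 0.20, edgeR adjusted p = 9.64e-05). Pde10a was called lower under vehicle only (1.83 ± 0.592 CPM in BPH_vehicle and 2.94 ± 0.658 CPM in BPN_vehicle, -0.69 ± 0.18, adjusted p = 0.00612), and whether this differs between treatments was not called (interaction, 0 of 26 genes). Pde3b was called higher under Cmpd17b (0.56 ± 0.18, adjusted p = 0.0351), a call lost in 4 of 11 fits without 1 library and in 5 of 10 other settings, among them 0.44 (adjusted p = 0.0517) without the 3 libraries that stood apart and 0.43 (adjusted p = 0.0779) in batch 1 alone.

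Of 7 tested effectors, Rgs2 was called higher in both treatments. Rgs2 encodes a regulator of G-protein signalling that the kinase of Prkg1 is known to activate. It averaged 18.5 ± 4.07 CPM in BPH_vehicle and 7.97 ± 2.14 CPM in BPN_vehicle (1.21 ± 0.15, edgeR adjusted p = 8.17e-07). Under Cmpd17b it averaged 16.2 ± 3.25 CPM in BPH_Cmpd17b and 7.86 ± 1.14 CPM in BPN_Cmpd17b (1.02 ± 0.18, edgeR adjusted p = 0.000102). The groups did not overlap in either treatment.

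Of 15 transcription factors known to act on Nppa or Nppb, 2 were called under vehicle and 2 under Cmpd17b, against 18.9% and 14.1% of all genes in those comparisons. Myocd, a cofactor of serum response factor, was higher in BPH_vehicle (73.6 ± 10.8 CPM, against 57.5 ± 13.3 CPM in BPN_vehicle, 0.36 ± 0.12, edgeR adjusted p = 0.036), a call lost in 5 of 14 fits without 1 library. Hand2 was lower (49.4 ± 15.5 CPM in BPH_vehicle and 68.6 ± 21.2 CPM in BPN_vehicle, -0.48 ± 0.12, adjusted p = 0.00522). It kept that call in all 14 fits without 1 library, but not with no batch term (-0.48, adjusted p = 0.0744), in batch 2 alone (-0.41, adjusted p = 0.139) or with all 26 libraries (-0.48, adjusted p = 0.711). Under Cmpd17b, Hand2 was again lower (40.3 ± 3.91 CPM in BPH_Cmpd17b and 65.3 ± 11.9 CPM in BPN_Cmpd17b, -0.80 ± 0.14, adjusted p = 0.000128). Tbx5 was also lower under Cmpd17b (14.9 ± 2.52 CPM in BPH_Cmpd17b and 19.6 ± 0.737 CPM in BPN_Cmpd17b, -0.38 ± 0.12, adjusted p = 0.032), a call lost in 5 of 11 fits without 1 library. The GATA, TEAD and Nkx2-5 genes of the list, whose motifs are marked in the promoters above, were not called in any comparison.

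Expressed genes near Nppb and Nppa on chromosome 4, 7 in all, were set beside them. On the side of Nppa, Clcn6, a chloride transporter gene, was called higher in BPH/2J under vehicle (13.4 ± 1.23 CPM in BPH_vehicle and 9.97 ± 2.13 CPM in BPN_vehicle, 0.44 ± 0.10, edgeR adjusted p = 0.00114) and under Cmpd17b (14.4 ± 0.894 CPM in BPH_Cmpd17b and 9.39 ± 1.21 CPM in BPN_Cmpd17b, 0.67 ± 0.11, adjusted p = 5.95e-05). Agtrap, which encodes a protein bound to the angiotensin receptor, was called higher by 0.22 under vehicle, a call lost in 10 of 14 fits without 1 library. On the side of Nppb, Fv1, a restriction factor of retroviral origin, was called lower by 1.63 and 1.94 on the log2 scale, and Mfn2, Plod1 and 2510039O18Rik were not called. None of the 7 was called in a drug comparison.

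**Figure D5:**
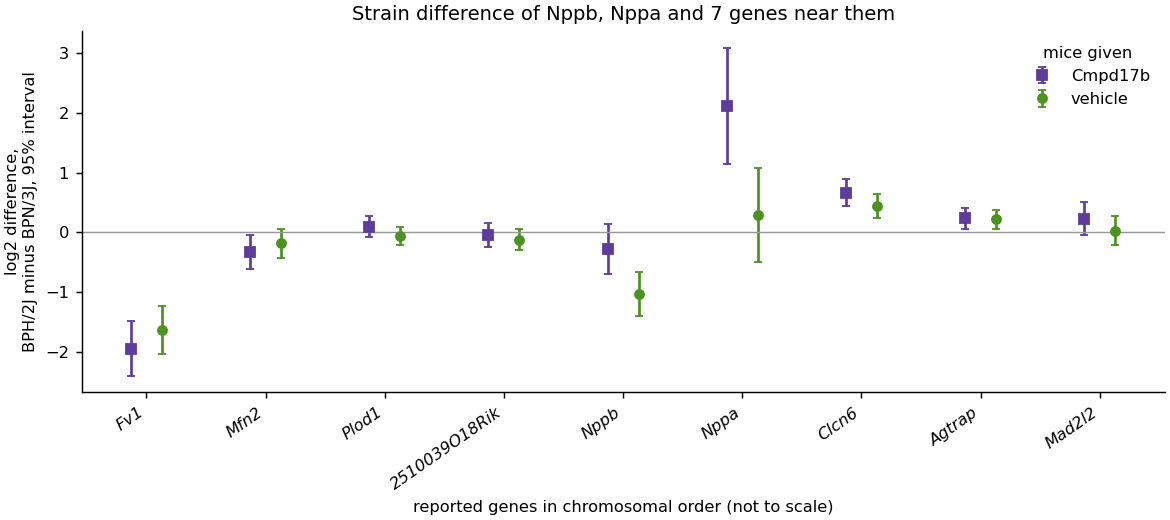
Log2 strain difference (BPH/2J minus BPN/3J, 95% interval) of Nppb, Nppa and 7 expressed genes near them, in chromosomal order (not to scale). Nppb is lower under vehicle by 1.03 on the log2 scale, while Clcn6, on the side of Nppa, is higher in both treatments.

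Across the 25 libraries, Nppa and Nppb had a Pearson r of log2 CPM of 0.10. The genes most like Nppa among 12721 with a mean of at least 1 CPM were Uchl1 (r = 0.86), Gpx1 (0.85), Ptpn18 (0.85), Itgb3 (0.84) and Phlda3 (0.82), with Spearman's rho between 0.78 and 0.82. Without the 2 libraries farthest from the median of Nppa, r lay between 0.72 and 0.83. The genes most like Nppb were Nudt13 (r = 0.84), Ccn2 (0.83), Serf1 (0.81), Nol3 (0.81) and Hspb1 (0.81), with rho between 0.74 and 0.84, and r between 0.71 and 0.79 without the 2 farthest libraries. These values describe likeness across libraries of 4 groups, which share strain, treatment and scaling, and carry no test.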

How the data were processed

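Per the labels' protocols, total RNA went into VAHTS V8 libraries that were read from both ends. Per the submitters' processing notes, Trim Galore 0.6.7 trimmed the reads and STAR 2.7.9a placed them on GRCm39 (mm39). Which program counted them, with what strand setting and gene annotation, is not given in the sources used here. The authors deposited 1 table of expected counts per gene. Of its values 93.3% were whole as deposited (a tolerance of 0), and all were rounded.

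Genes were kept by filterByExpr and scaled by TMM. A robust quasi-likelihood model (edgeR 4.0.16 in R 4.3.3) was fitted to 25 libraries, with a coefficient for each group and a term for batch, and its p-values were corrected over 15543 genes (Benjamini-Hochberg, threshold 0.05). The standard error is the difference divided by the square root of F. The fit was tested on simulated data. Groups came from the labels' strain and treatment, and replicate numbers follow sample order. DESeq2 1.42.0 and limma 3.58.1 (voom with quality weights) were alternatives, with RLE scaling, other filters, no batch term, each batch alone, all 26 libraries, only the groups compared, and each library left out. Leaving out the 3 libraries that stood apart was added after the data were seen. Count ratios were compared by exact two-sided permutation over libraries. At these totals the precision of low genes is limited by counting error as well as by mice.

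The 10 genes and the lists were chosen with earlier results of these data known. All 10 are named in every comparison, with up to 4 called genes per other list, the 5 genes most like Nppa or Nppb, and expressed neighbours of Nppa and Nppb in the GRCm38 annotation, of which 1 is not reported here. Nppc, Ostn, Nos1 and Kcnma1 of the lists were below the filter.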

Additional observations from a re-analysis of the deposited data

Results flagged for a closer look

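Single libraries lay far from the rest of their group in 9 of 40 groups of values examined over the 10 genes. The rule flags about 1 in 20 by chance only for independent, normally distributed values. The 10 genes were measured in the same libraries, so the 40 groups are not independent and no excess over chance is read from them. BPN_vehicle replicate 7 was the highest of its group for Npr1 (46.7 CPM, next 18.6 CPM), Npr2 (62.4 CPM, next 47.7 CPM) and Pde9a (7.49 CPM, next 3.39 CPM) and the lowest for Corin (68.3 CPM, next 117 CPM). BPH_Cmpd17b replicate 6 was the highest of its group for Nppa (2546 CPM, next 726 CPM) and Nppb (390 CPM, next 195 CPM) and the lowest for Npr3 (9.87 CPM, next 12.4 CPM). BPN_Cmpd17b replicate 5 was the lowest of its group for Nppa (77.1 CPM, next 182 CPM), and BPH_vehicle replicate 3 the highest for Npr2 (50.4 CPM, next 45.1 CPM).

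In the kidney-like library labelled BPH_Cmpd17b replicate 7, which no comparison uses, Furin (138 CPM), Pde5a (5.66 CPM) and Pde9a (26.8 CPM) lay above the highest BPH_vehicle library (73.6, 4.36 and 3.49 CPM, all scaled with 26 libraries). Nppa was at 1.08 CPM and Nppb at 0.207 CPM there.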

How the results depend on the processing

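No paired analysis was possible because replicate numbers follow sample order and pair no libraries. Over the 10 genes, 16 fits under vehicle and 2 under Cmpd17b lost a strain call, 2 and 2 gained one, and none in the drug comparisons or the interaction did either. The count of genes called under vehicle was 1492 with all 26 libraries and 1168 in batch 2 alone, with 1 and 2 of the 10 genes. Under Cmpd17b it was 1195 with all 26 libraries, with 2 of the 10 genes, and 3405 with voom. In BPN/3J DESeq2 called 1 gene for the drug. The Nppa to Nppb ratio missed the threshold in batch 1 alone (1.24 under vehicle, 2.23 under Cmpd17b), and the Npr3 to Npr1 ratio passed it under Cmpd17b in 1 of 11 fits without 1 library (fits from -0.48 to -0.29). Where the cause is not given by the fewer libraries, it was not tested. Depth limits Pde9a most, with as few as 58 counts in a library.

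Signs turned only for values that were not called in either setting. For the strain difference under vehicle, Npr2 was 0.056 with voom, 0.23 in batch 2 alone and 0.063 without the 3 libraries, and Corin was 0.033 in batch 2 alone. Furin was -0.068 with voom, -0.014 in batch 1 alone and -0.045 without the 3 libraries. For that under Cmpd17b, Furin was -0.013 with no batch term and -0.00085 in batch 1 alone, and Pde9a was 0.45 with all 26 libraries. For the drug difference in BPH/2J, Npr2 was -0.0052 with all 26 libraries, and Npr3 was 0.011 in batch 1 alone and 0.0023 without the 3 libraries. Corin was -0.26 with all 26 libraries, and Prkg1 was -0.091 with all 26 libraries. Pde5a was -0.011 with voom, -0.00077 with no batch term, -0.038 in batch 1 alone, -0.0020 with only the groups compared and -0.016 without the 3 libraries, and Pde9a was 0.72 with all 26 libraries. The Npr3 to Npr1 ratio was 0.0011 with all 26 libraries, 0.13 in batch 1 alone and 0.099 without the 3 libraries. For that in BPN/3J, Npr3 was -0.00090 in batch 1 alone and -0.0085 with only the groups compared, and Furin was -0.013 with voom. Prkg1 was -0.046 with all 26 libraries, -0.055 with voom, -0.080 with no batch term and -0.068 without the 3 libraries, and Pde5a was 0.066 with voom and 0.043 without the 3 libraries. For the interaction, Npr3 was 0.012 in batch 1 alone, and Furin was 0.12 with all 26 libraries, 0.095 with voom, 0.013 in batch 1 alone and 0.049 without the 3 libraries. Prkg1 was -0.045 with all 26 libraries, and Pde5a was -0.077 with voom, -0.022 in batch 1 alone and -0.058 without the 3 libraries. Pde9a was -0.073 with voom and -0.16 without the 3 libraries.

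Signs also turned when 1 library was left out at a time. The strain difference ran for Npr2 from -0.048 to 0.072, Corin from -0.11 to 0.042, Furin from -0.039 to 0.11 and the Npr3 to Npr1 ratio from -0.20 to 0.080 under vehicle, and for Npr1 from -0.095 to 0.0032 and Furin from -0.022 to 0.087 under Cmpd17b. The drug difference ran for Npr2 from -0.020 to 0.052, Corin from -0.029 to 0.050, Pde5a from -0.030 to 0.077 and the Npr3 to Npr1 ratio from -0.11 to 0.074 in BPH/2J, and for Npr3 from -0.012 to 0.089, Prkg1 from -0.061 to 0.093 and Pde5a from -0.094 to 0.022 in BPN/3J. The interaction ran for Furin from -0.095 to 0.065, Pde5a from -0.016 to 0.12 and Pde9a from -0.042 to 0.35.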
